A study of Mus musculus with 12 samples.

Results

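The genes described here encode the enzymes that cut, protect and cross-link the extracellular matrix in mouse liver: the matrix metalloproteases (Mmp), their tissue inhibitors (Timp), the related ADAM and ADAMTS proteases, the lysyl oxidases (Lox, Loxl1 to Loxl4), the lysyl hydroxylases (Plod1 to Plod3), and the plasminogen activators with their receptor (Plat, Plau, Plaur). They were taken by the gene name that the array files give each probe, with no use of measured values, and made up 141 of the 41174 gene probes, for 81 of the 27962 gene names on the array. Each of the 12 Agilent arrays, read in 2 colours, compared the liver RNA of an Abcb4 (-/-) mouse with that of an Abcb4 (+/+) mouse in the other dye. The 6 arrays of the first group held knockout mice fed cholic acid (CA), and the 6 of the second held knockout mice fed ursodeoxycholic acid (UDCA), both for 9 weeks. The design text states that CA should increase the activity of the disease and that UDCA should decrease it. By the same text, 5 livers were harvested per group without pooling, and the sixth array of each group was a dye swap of 1 of these livers. Thus 1 pair of arrays per group shares a liver, and p-values are somewhat too small. The sources used here do not state strain, sex or age, nor whether wild-type mice also received bile acids.

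Abcb4 is the canalicular transporter that moves phosphatidylcholine into bile, and mice without it develop bile duct injury and scarring around the ducts. In such scarring, activated stellate cells and portal fibroblasts deposit collagen, which lysyl hydroxylases modify inside the cell and lysyl oxidases cross-link outside it. Metalloproteases degrade the matrix and shed membrane proteins, TIMPs block them by binding the catalytic site, and plasmin, made from plasminogen by Plat and Plau, activates several of them. Both probes of Abcb4 itself were lower in the knockout livers, with log2 ratios of -0.73 ± 0.21 and -2.73 ± 0.21 with CA (adjusted p = 0.00699 and 4.32e-08) and of -1.28 ± 0.21 and -1.77 ± 0.21 with UDCA (SE, n = 6 arrays each, limma, adjusted p = 0.000320 and 1.82e-05). The second probe was below 0 on all 12 arrays, and the first was above 0 on CA array 1 (0.11) and UDCA array 2 (0.34).

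Several of the metalloprotease genes lie side by side: the probes of 8 Mmp genes fell within 415 kb of chromosome 9 (mm7, chr9:7280046-7695493), and only 3 of these 8, Mmp13, Mmp12 and Mmp7, were bright enough to be tested, against 8 of the 13 Mmp genes elsewhere. The regions just before the start sites of these 3 genes are shown because each holds the letters TGAGTCA or their reverse complement TGACTCA, the sequence that AP-1 (Fos and Jun) binds, in capitals. They are followed by those of Plaur and Adam19, the other tested genes with these letters. The stretches are the 250 bases before the start, 5′ to 3′ on the strand of the gene, from RefSeq (GRCm38): Mmp7 (chr9:7691840-7692089), Mmp12 (chr9:7347124-7347373), Mmp13 (chr9:7272264-7272513), Plaur (chr7:24462233-24462482) and Adam19 (chr11:46055734-46055983), all on the plus strand.
Mmp7: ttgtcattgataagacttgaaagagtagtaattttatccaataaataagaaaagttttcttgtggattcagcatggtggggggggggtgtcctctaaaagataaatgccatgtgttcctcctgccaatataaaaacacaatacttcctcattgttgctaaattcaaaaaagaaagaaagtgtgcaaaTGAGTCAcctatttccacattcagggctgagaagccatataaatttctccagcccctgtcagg
Mmp12: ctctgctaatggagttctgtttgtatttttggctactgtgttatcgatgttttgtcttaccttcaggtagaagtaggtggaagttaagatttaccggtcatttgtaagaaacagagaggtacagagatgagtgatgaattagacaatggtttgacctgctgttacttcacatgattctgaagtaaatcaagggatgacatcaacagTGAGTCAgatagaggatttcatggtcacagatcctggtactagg
Mmp13: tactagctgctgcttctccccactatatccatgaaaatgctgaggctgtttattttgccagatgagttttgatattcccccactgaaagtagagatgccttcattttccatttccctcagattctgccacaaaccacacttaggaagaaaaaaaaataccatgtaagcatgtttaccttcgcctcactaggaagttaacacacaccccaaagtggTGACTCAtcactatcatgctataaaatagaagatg
Plaur: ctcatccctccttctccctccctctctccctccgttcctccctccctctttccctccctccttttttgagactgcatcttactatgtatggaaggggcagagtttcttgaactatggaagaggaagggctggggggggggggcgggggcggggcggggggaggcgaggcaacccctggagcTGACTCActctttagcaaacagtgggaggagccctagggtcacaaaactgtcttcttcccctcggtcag
Adam19: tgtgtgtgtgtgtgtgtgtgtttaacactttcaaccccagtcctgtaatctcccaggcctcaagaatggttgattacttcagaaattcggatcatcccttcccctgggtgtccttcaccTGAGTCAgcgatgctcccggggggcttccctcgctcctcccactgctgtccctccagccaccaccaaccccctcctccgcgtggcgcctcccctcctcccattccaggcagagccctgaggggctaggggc
The letters began 63 bases before the start of Mmp7, 44 before that of Mmp12, 35 before that of Mmp13, 69 before that of Plaur and 131 before that of Adam19. Of the 81 genes, 44 had a sequence in the RefSeq table. In the window running from 250 bases before to 50 after the start, searched on both strands, AP-1 letters stood in 10 of these 44 and in 5.20% of all 32851 promoters. The 5 genes with them that were not tested were Mmp1a, Mmp3, Mmp10, Adam1b and Adam29. The GC box letters GGGCGG or CCGCCC stood in 25 of the 44, all 3 tested TIMP genes among them, and in 35.7% of all promoters. Another pair of motifs was searched in the same way: the ETS letters AGGAAG or CTTCCT stood in 20 of the 44 and in 35.4% of all promoters, and the TEAD letters GGAATG or CATTCC in 4 of the 44 and in 14.7% of all promoters. A member gene counted if any of its promoter sequences held the letters, while the share of all promoters counts each sequence singly. The counts and the shares are thus not like measures, and a gene with several sequences had more chances of a match. AP-1 and the GC box, and the genes printed, were chosen from these 4 motifs after the counts were seen, so the shares are a description only. The same 250 bases of Timp2 (chr11:118355412-118355661, minus strand) and Timp3 (chr10:86300162-86300411, plus strand), whose ratios were the highest of the TIMPs, are given with the GC box in capitals.
Timp2: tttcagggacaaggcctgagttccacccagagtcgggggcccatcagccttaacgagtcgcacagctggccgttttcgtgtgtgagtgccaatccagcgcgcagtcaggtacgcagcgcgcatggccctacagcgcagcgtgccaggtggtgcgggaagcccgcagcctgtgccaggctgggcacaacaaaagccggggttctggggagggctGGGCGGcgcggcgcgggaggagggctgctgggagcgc
Timp3: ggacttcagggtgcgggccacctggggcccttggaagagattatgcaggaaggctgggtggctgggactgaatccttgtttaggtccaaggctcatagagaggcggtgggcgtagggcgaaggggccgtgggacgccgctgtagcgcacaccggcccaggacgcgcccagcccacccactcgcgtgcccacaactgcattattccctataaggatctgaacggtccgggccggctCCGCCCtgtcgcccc
The GC box began 37 bases before the start of Timp2 and 15 bases before that of Timp3. A match describes these letters only, and binding was not measured.

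Median green intensities ran between 250.2 and 1296 and median red intensities between 59.2 and 158.2 over the 12 arrays. Values given for single arrays, here and below, keep the dye effect of each probe, which the fitted ratios remove. Their spread thus holds the dye orientation as well as differences between livers. Oriented as knockout over wild type, the log2 ratios of arrays of 1 diet correlated across probes between 0.783 and 0.882 with CA and between 0.487 and 0.879 with UDCA where the dyes ran the same way, and between 0.540 and 0.763 with CA and between 0.0219 and 0.641 with UDCA where they were opposite. Of the 5 slides, 2 carried both diets: CA array 5 shared slide 3 with UDCA arrays 1 and 2, and CA array 6 shared slide 4 with UDCA arrays 3, 4 and 5. Slides 1 and 2 carried the other CA arrays, and UDCA array 6 was alone on slide 5.

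A gene was tested where at least 1 of its probes was well above background on 5 of the 6 arrays, in either dye channel of either group, and it was then read from its brightest such probe. Of the 81 genes, 45 passed and 36 did not, 15 of which were above background in no channel. The untested genes held the interstitial collagenases Mmp1a and Mmp8, the gelatinase Mmp9, the stromelysins Mmp3 and Mmp10, Timp4, Loxl4 and most of the ADAM genes known for a role in sperm. The brighter probe of Mmp9 was above background in CA-fed knockout liver on 2 arrays and in none of the wild-type channels. Loxl4 reached it on 4 arrays of CA-fed knockout liver and Adamts6 also on 4, again with no wild-type channel. Among the 45 tested genes, 30 were also detected in wild-type liver. The other 15 passed on the knockout channel alone and could hardly have come out lower, so counts are given apart for them.

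Most of the measured enzymes and inhibitors were higher in knockout liver, and more of them with CA than with UDCA. With CA, 36 of the 45 genes were higher than in wild type and 3 were lower, against 37.8% of all 15373 gene names called higher and 22.4% called lower (limma, adjusted p under 0.05 over all tested probes). Of the 30 genes also detected in wild type, 23 were higher and 3 lower, and their median log2 ratio was 1.19, where all genes detected in wild type had 32.4% higher, 26.6% lower and a median of 0.02. With UDCA, 23 of the 45 were higher and 0 lower by limma (0 lower at an unadjusted p under 0.05), against 17.2% of all gene names called higher and 8.77% called lower. Of the 30 also detected in wild type, 20 were higher, with a median of 0.70, where all genes detected in wild type had 17.8% higher and a median of 0.01. Of the 15 detected in knockout only, 13 (86.7%) were higher with CA and 3 (20%) with UDCA, the latter near the 17.2% of all gene names. These 15 passed through the knockout signal, so their counts are partly set by the filter. No share over all genes that passed in this way was computed to set beside them. Fewer cells of a type and less RNA per cell cannot be told apart in whole liver, and the same holds for more of either.

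**Figure D1:**
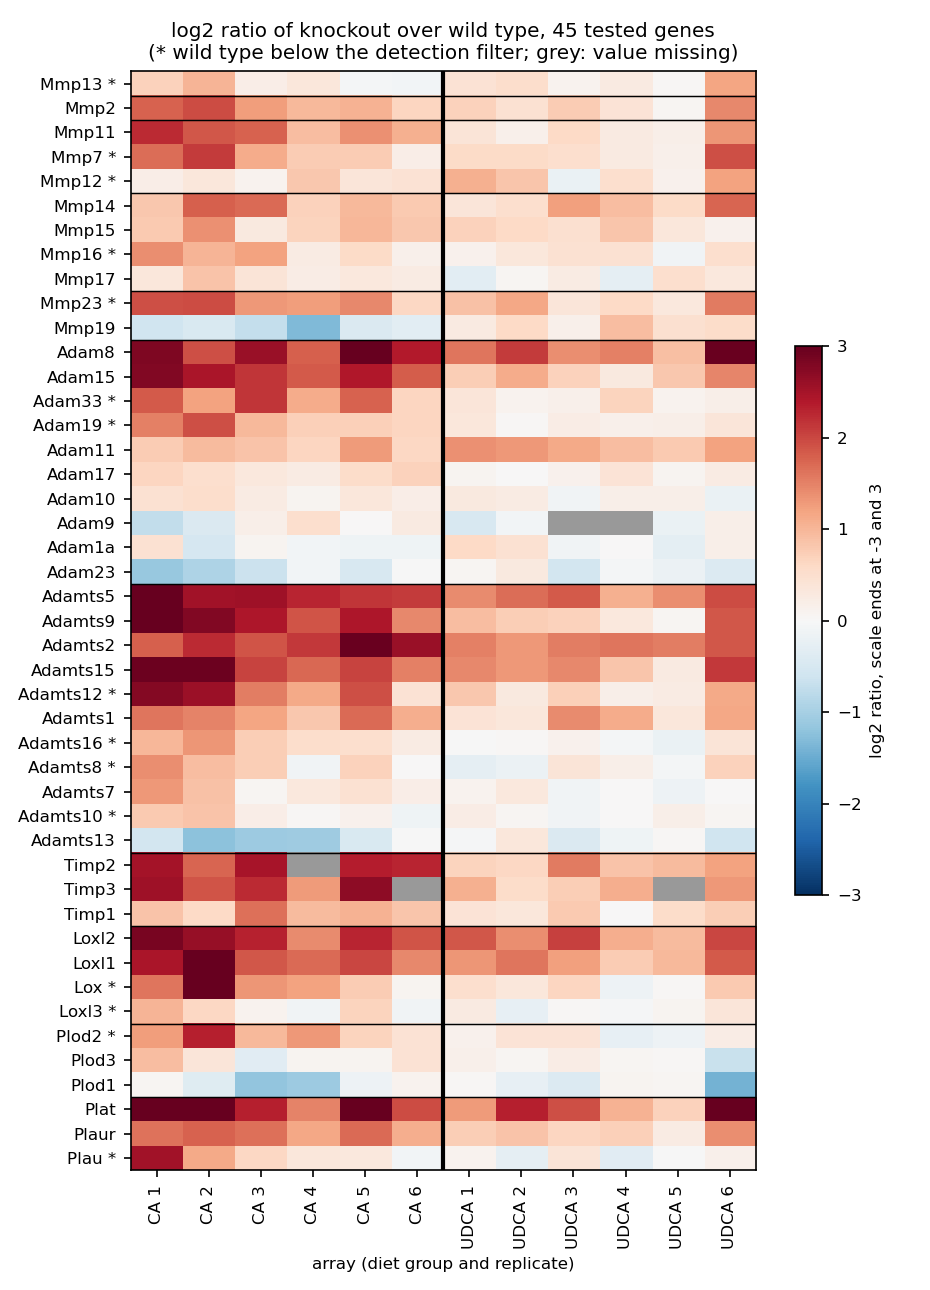
Log2 ratio of knockout over wild type for the 45 tested genes (rows, grouped by role and ordered by the CA value) on the 6 CA and 6 UDCA arrays (columns). Red is higher and blue is lower in knockout, grey is a missing value, and a star marks the 15 genes that passed the filter on the knockout channel alone. The ADAMTS, TIMP and lysyl oxidase rows are red throughout the CA columns for most genes, while Mmp19 is blue in the CA columns and red in the UDCA columns.

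Of the 45 genes, 21 were higher with CA and with UDCA, 15 were called higher only with CA, and Mmp12 only with UDCA. Over all gene names, 37.8% were called higher and 22.4% lower with CA, and 17.2% and 8.77% with UDCA. The counts by role below stand beside the same shares. Shares of all gene names for the joint patterns of both diets are not given here. Whether a gene differed between the diets was tested separately and is given after the roles. Mmp19 was lower with CA and higher with UDCA. Adam23 and Adamts13 were lower with CA and were not called with UDCA, and Mmp13, Adam1a, Adam9, Plod1 and Plod3 were called in neither. Per array, the median log2 ratio of the 30 genes ran between 0.81 and 1.62 with CA and between 0.34 and 1.20 with UDCA. UDCA array 6, alone on its slide, gave the highest of the UDCA medians, and the next highest was 0.71.

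**Figure D2:**
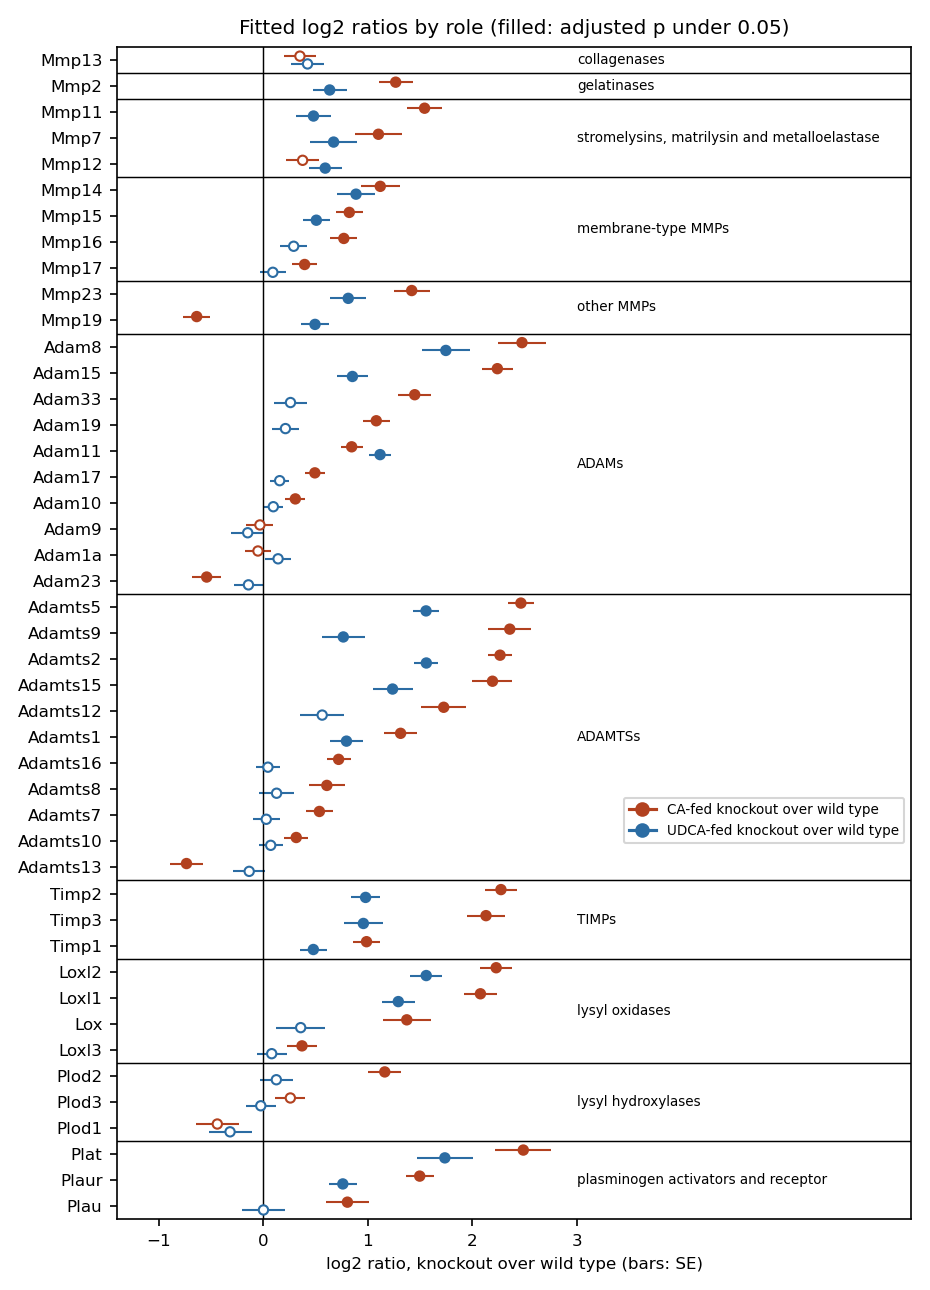
Fitted log2 ratio of knockout over wild type (horizontal axis, bars are SE) for each tested gene, by role, in CA-fed knockout (red) and UDCA-fed knockout (blue). Filled points have an adjusted p under 0.05. The CA point lies to the right of the UDCA point for 37 of the 45 genes, 24 of the 30 detected in wild type among them.

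Of the collagenases, which cut the triple helix of fibrillar collagen, only Mmp13 could be tested. It was well above background on 5 arrays of CA-fed and 4 of UDCA-fed knockout liver and in no wild-type channel. Its log2 ratio was 0.35 ± 0.16 with CA (adjusted p = 0.0657) and 0.42 ± 0.16 with UDCA (SE, n = 6 arrays each, limma, adjusted p = 0.0634), and neither passed the test.

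The gelatinase Mmp2, which degrades denatured collagen and basement membrane and is made by stellate cells, rose with both diets. The lowest, median and highest log2 ratios over the 6 arrays were 0.65, 1.14 and 1.95 with CA, and 0.06, 0.58 and 1.43 with UDCA. All 12 arrays were above 0 and the diets overlapped. The fitted log2 ratio was 1.27 ± 0.16 with CA (SE, limma, adjusted p = 9.16e-06) and 0.64 ± 0.16 with UDCA (adjusted p = 0.0100). Mmp14, the membrane-type protease that activates pro-Mmp2, had a fitted ratio of 1.12 ± 0.19 with CA and 0.89 ± 0.19 with UDCA (adjusted p = 0.000104 and 0.00249, limma). Its second probe gave 1.14 with CA, called, and 0.44 with UDCA, not called, and the difference between the diets was called for that probe (0.70) but not for the first (0.23). The spots of the first were saturated on 3 CA and 2 UDCA arrays.

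Mmp15 had 0.82 ± 0.13 with CA and 0.51 ± 0.13 with UDCA, both called. The UDCA call of Mmp15 is lost with median centring (0.98, adjusted p = 0.117) and without slide 4 (0.44, adjusted p = 0.206, limma). Mmp16 and Mmp17 were called with CA only, Mmp16 with at least 1.60-fold more in CA-fed knockout liver (adjusted p = 0.000126, limma), a bound because it was not well above background on any wild-type array. Such bounds allow for the dim wild-type signal only, and not for the spread between arrays. Mmp17 had a log2 ratio of 0.40 ± 0.12 with CA (adjusted p = 0.0117), a call lost in 4 of 24 alternatives, among them that without CA array 2 (0.30, adjusted p = 0.0579) and that with slide as a fixed block. Mmp23, a membrane-anchored metalloprotease, had 1.42 ± 0.17 with CA and 0.81 ± 0.17 with UDCA, both called, and was detected in wild-type liver on 4 arrays of the CA group and 2 of the UDCA group.

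Mmp11, or stromelysin 3, which is made by fibroblasts beside remodelling epithelium, had a lowest value of 0.93, a median of 1.57 and a highest of 2.24 with CA, against 0.15, 0.33 and 1.32 with UDCA. The CA arrays were mostly higher, with some overlap. The fitted log2 ratio was 1.54 ± 0.17 with CA (adjusted p = 1.47e-06) and 0.48 ± 0.17 with UDCA (adjusted p = 0.0488, limma). The UDCA call is lost in 15 of 24 alternative settings, 9 of them with 1 array left out (log2 ratios between 0.26 and 0.54). Mmp7, or matrilysin, an epithelial protease of ducts, had a lowest value of 0.20, a median of 0.94 and a highest of 2.10 with CA, and 0.16, 0.55 and 1.93 with UDCA. The highest UDCA value was from array 6, and the other 5 lay between 0.16 and 0.58. Its fitted ratio was 1.10 ± 0.22 with CA (adjusted p = 0.000584) and 0.67 ± 0.22 with UDCA (adjusted p = 0.0394, limma) and the UDCA call is lost without UDCA array 6, where its log2 ratio is 0.35. It is also lost without CA array 5 or any of UDCA arrays 1, 2, 4 and 5, with values of up to 0.74.

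Mmp12, the macrophage metalloelastase, was the one gene of the set called higher with UDCA and not with CA. It was at least 1.41-fold higher in UDCA-fed knockout liver, and its log2 ratio was 0.59 ± 0.16 (adjusted p = 0.0125, limma). The call of Mmp12 is lost with slide as a fixed block (0.23, adjusted p = 0.351, limma) and without UDCA array 1 or 2 (0.47 to 0.52). With CA it was 0.38 ± 0.16 (adjusted p = 0.0516), and Mmp12 was called higher with CA in 9 of 23 alternatives. The difference between the diets was -0.22 ± 0.22 (adjusted p = 0.506), so it was not shown to differ between them.

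Mmp19, a secreted protease of the basement membrane with broad substrates, moved in opposite directions. Its probe, at chr10:128300933-128300992 (mm7), gave log2 ratios between -1.33 and -0.31 with a median of -0.52 in the CA group, and between 0.15 and 0.92 with a median of 0.52 in the UDCA group. All 6 CA arrays lay below all 6 UDCA arrays. The fitted log2 ratio was -0.64 ± 0.13 with CA (adjusted p = 0.000672) and 0.50 ± 0.13 with UDCA (adjusted p = 0.0119), and the difference was -1.13 ± 0.19 (SE, limma, adjusted p = 0.000570). Under median centring in place of loess, neither ratio against wild type is called (adjusted p = 0.0988 with CA and 0.0616 with UDCA) and the difference is (-1.39, adjusted p = 0.0447, limma), each in the same direction. The UDCA call is also lost without UDCA array 4 (0.41, adjusted p = 0.0574).

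Among the ADAMs, which shed membrane-bound ligands and receptors, 7 of the 10 tested genes were higher with CA and 1 lower, and 3 were higher with UDCA. The shares over all gene names were 37.8% higher and 22.4% lower with CA, and 17.2% higher with UDCA. Adam8, a sheddase of leucocytes and of injured epithelium, had a lowest, median and highest log2 ratio of 1.78, 2.48 and 3.38 with CA against 0.89, 1.56 and 2.96 with UDCA. Every array was above 0 in both diets, and the diets overlapped. Its fitted ratio was 2.48 ± 0.23 with CA (adjusted p = 3.15e-07) and 1.75 ± 0.23 with UDCA (adjusted p = 5.18e-05, limma).

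Adam15, a sheddase that also binds integrins, was higher on every CA array (1.81, 2.28 and 2.77 as lowest, median and highest) than on any UDCA array (0.29, 0.78 and 1.47). Its fitted ratio was 2.24 ± 0.15 with CA and 0.85 ± 0.15 with UDCA (adjusted p = 8.58e-09 and 0.000513, limma). A second probe of Adam15 gave 0.43 ± 0.16 with CA, called, and 0.13 with UDCA, not called, so the size depends on the probe. Adam33 and Adam19 were called higher with CA and not with UDCA: Adam33, an ADAM of mesenchymal cells, had 1.45 ± 0.16 (adjusted p = 1.49e-06) and Adam19 had 1.08 ± 0.13 (adjusted p = 5.19e-06, limma). Adam19 was above background in wild-type liver on 3 arrays of the CA group and Adam33 on 1. The second probe of Adam33 gave a smaller ratio of 0.35 ± 0.12 with CA.

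The general sheddases had smaller ratios. Adam17, which releases TNF and several ligands of the EGF receptor, had 0.49 ± 0.09 with CA (adjusted p = 0.000316) and 0.16 ± 0.09 with UDCA (adjusted p = 0.253, limma). Adam10, which sheds Notch receptors and the chemokine Cx3cl1, had 0.31 ± 0.09 with CA (adjusted p = 0.0111) and 0.10 ± 0.09 with UDCA. The CA call of Adam10 is lost with Agilent's processed signals (0.34), with median centring (0.55) and with slide as a fixed block (0.21), at adjusted p-values of up to 0.278 (limma). Adam11, which has no catalytic activity, was higher with both diets, 0.85 ± 0.11 with CA and 1.12 ± 0.11 with UDCA. Adam9 gave no call, and its spots were saturated on 2 CA arrays and 1 UDCA array and missing on 2.

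Adam23, a non-catalytic neuronal adhesion protein, was lower with CA at -0.54 ± 0.14 (adjusted p = 0.00373, limma) and not called with UDCA at -0.14 ± 0.14. The CA call of Adam23 is lost with median centring (-0.37, adjusted p = 0.393) and with slide as a fixed block (-0.26, adjusted p = 0.0933, limma). A second probe of it gave -0.33 ± 0.12 with CA, called lower, and 0.35 with UDCA, called higher, where the first probe was not called.

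In the ADAMTS family 10 of the 11 tested genes were higher and 1 lower with CA, and 5 were higher with UDCA. All gene names had 37.8% higher and 22.4% lower with CA, and 17.2% higher with UDCA. The ADAMTS genes encode secreted proteases that process procollagens and cut proteoglycans such as versican and aggrecan. Adamts5, the main aggrecan- and versican-cutting member, had log2 ratios of 2.09, 2.40 and 3.20 (lowest, median, highest) with CA and of 1.08, 1.54 and 1.95 with UDCA. The 6 CA arrays all lay above the 6 UDCA arrays. The fitted ratio was 2.47 ± 0.13 with CA (adjusted p = 1.16e-09) and 1.56 ± 0.13 with UDCA (adjusted p = 5.54e-07, limma), at chr16:85858359-85858419 (mm7). A second, dimmer probe gave 0.83 with CA, called, and 0.21 with UDCA, not called.

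Adamts2, which removes the amino-terminal propeptide of procollagen I, ran between 1.79 and 2.97 with a median of 2.18 with CA, and between 1.31 and 1.86 with a median of 1.54 with UDCA. The 2 ranges overlap slightly. The fitted ratios of 2.27 ± 0.11 with CA and 1.56 ± 0.11 with UDCA had adjusted p-values of 9.91e-10 and 1.98e-07 (limma). A second probe gave 2.36 ± 0.19 with CA and 1.18 with UDCA, both called. Adamts9, which cuts versican, had 2.36 ± 0.21 with CA and 0.77 ± 0.21 with UDCA (adjusted p = 1.53e-07 and 0.0128, limma), and both of its other probes gave smaller values, 0.64 and 0.41 with CA, called, and 0.04 and 0.01 with UDCA, not called. With the probes averaged the UDCA call of Adamts9 is lost (0.27, adjusted p = 0.108, limma). Adamts15, a versican-cutting member, had 2.19 ± 0.19 with CA and 1.24 ± 0.19 with UDCA, both called.

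Adamts12, which cuts cartilage oligomeric matrix protein, had 1.73 ± 0.21 with CA (adjusted p = 5.79e-06) and 0.56 ± 0.21 with UDCA (adjusted p = 0.0689, limma). It was above background in wild-type liver on 2 arrays of the CA group and in none of the UDCA group. With UDCA, Adamts12 was called higher in 6 of 24 alternatives. Adamts1, an aggrecan- and versican-cutting member with anti-angiogenic activity, was higher with both, 1.31 ± 0.16 with CA and 0.80 ± 0.16 with UDCA, and its second probe was not called in either. Adamts16 and Adamts8 were in no wild-type channel above background and were at least 1.63-fold and 1.44-fold higher in CA-fed knockout liver, while Adamts7 and Adamts10 had 0.54 ± 0.13 and 0.32 ± 0.11 with CA. Adamts7 and Adamts10 were not called with UDCA.

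Adamts13, which cuts von Willebrand factor and is made by hepatic stellate cells, was the 1 ADAMTS gene called lower. It had a lowest of -1.24, a median of -0.81 and a highest of -0.01 with CA. The fitted ratio was -0.73 ± 0.16 with CA (adjusted p = 0.000830) and -0.13 ± 0.16 with UDCA (adjusted p = 0.589, limma). The CA-fed mice were thus lower for this gene on all 6 arrays. Von Willebrand factor itself (Vwf) was higher with both diets.

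The TIMPs, which bind and block the metalloproteases, were higher with both diets for all 3 tested genes. Timp2 and Timp3 had higher ratios than Timp1. Timp2 gave 1.74, 2.36 and 2.50 (lowest, median, highest of 5 arrays) with CA and 0.63, 0.90 and 1.57 with UDCA. The 5 CA values all lay above the 6 UDCA values. The fitted ratio was 2.27 ± 0.15 with CA (adjusted p = 1.90e-08) and 0.98 ± 0.14 with UDCA (adjusted p = 0.000114, limma), at chr11:118410877-118410936 (mm7), with saturated spots on 2 CA arrays and 1 value missing.

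Timp3, which is bound to the matrix and also blocks several ADAMs, had 2.13 ± 0.18 with CA and 0.96 ± 0.18 with UDCA (adjusted p = 4.93e-07 and 0.00196, limma), with 2 values missing. The UDCA call of Timp3 is lost with median centring (1.13, adjusted p = 0.0554, limma). Timp1, the soluble inhibitor, had 0.99 ± 0.13 with CA and 0.48 ± 0.13 with UDCA (adjusted p = 1.22e-05 and 0.0144, limma), and the UDCA call is lost without UDCA array 3 or 6 (0.41 to 0.42). Its other probes were both called with CA, the smaller at 0.82, and gave 0.39 and 0.59 with UDCA, of which the second was called. Timp4 was dim, above background on 2 arrays of CA-fed knockout liver and in 1 wild-type channel of the UDCA group, and was not tested.

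The enzymes that cross-link collagen and elastin were higher mainly among the lysyl oxidases. All 4 tested lysyl oxidases were higher with CA, and Loxl1 and Loxl2 with UDCA also. Loxl2, which also acts on collagen IV, had log2 ratios of 1.42, 2.30 and 2.86 (lowest, median, highest) with CA and 0.95, 1.63 and 2.06 with UDCA. The fitted ratio was 2.23 ± 0.15 with CA and 1.56 ± 0.15 with UDCA (adjusted p = 1.19e-08 and 2.60e-06, limma). Its second probe gave 0.77 ± 0.17 with CA, called, and 0.26 with UDCA, not called.

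Loxl1, needed for elastic fibres, had 2.08 ± 0.16 with CA and 1.29 ± 0.16 with UDCA (adjusted p = 4.08e-08 and 2.63e-05, limma). Lox, the first member, was not well above background on any wild-type array and was at least 2.56-fold higher in CA-fed knockout liver (adjusted p = 0.000123, limma). Its 6 CA values spread widely, with a lowest of 0.09, a median of 1.27 and a highest of 3.26. CA arrays 1 to 3, with knockout in Cy5, gave 1.33 to 3.26, and CA arrays 4 to 6, with knockout in Cy3, gave 0.09 to 1.21. Loxl3 was at least 1.27-fold higher with CA, a call lost in 6 of 23 alternatives, among them those without CA array 1, 2 or 5 (log2 ratios between 0.24 and 0.33). With slide as a fixed block the log2 ratio of Loxl3 is 0.09 (adjusted p = 0.620, limma). The lysyl hydroxylases, which mark the lysines to be cross-linked, were called for 1 of 3: Plod2, the telopeptide lysyl hydroxylase, had 1.16 ± 0.16 with CA (adjusted p = 1.61e-05, limma) and 0.13 ± 0.16 with UDCA. Plod1 and Plod3 gave no call in either diet, with Plod1 at -0.44 ± 0.21 and Plod3 at 0.26 ± 0.14 with CA. Of 24 alternatives, Plod1 was called lower with CA in 7 and Plod3 higher with CA in 1.

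Both plasminogen activators and their receptor were higher with CA, and Plat and Plaur with UDCA also. Plat, tissue-type plasminogen activator, had log2 ratios of 1.49, 2.65 and 3.11 (lowest, median, highest) with CA and 0.70, 1.60 and 3.15 with UDCA. The highest UDCA value, from array 6, was above every CA array, and the diets overlapped. The fitted ratio of 2.49 ± 0.27 with CA (adjusted p = 1.48e-06) and 1.74 ± 0.27 with UDCA (adjusted p = 0.000221, limma) came from the brightest probe, and a second probe of Plat gave 1.62 with CA and 0.86 with UDCA, both called. Plaur, the receptor of urokinase, had 1.50 ± 0.13 with CA and 0.76 ± 0.13 with UDCA (adjusted p = 1.97e-07 and 0.000633, limma), and its second probe gave 1.32 ± 0.16 with CA but 0.21, not called, with UDCA. Plau, urokinase, was at least 1.63-fold higher in CA-fed knockout liver (adjusted p = 0.00331, limma) and had 0.00 ± 0.20 with UDCA. The highest CA value of Plau was 2.51, on array 1, and the other 5 lay between -0.08 and 1.13. Its fitted log2 ratio was 0.81 with CA, 0.50 without that array, still called, and 0.36, not called, with slide as a fixed block (adjusted p = 0.149).

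**Figure D3:**
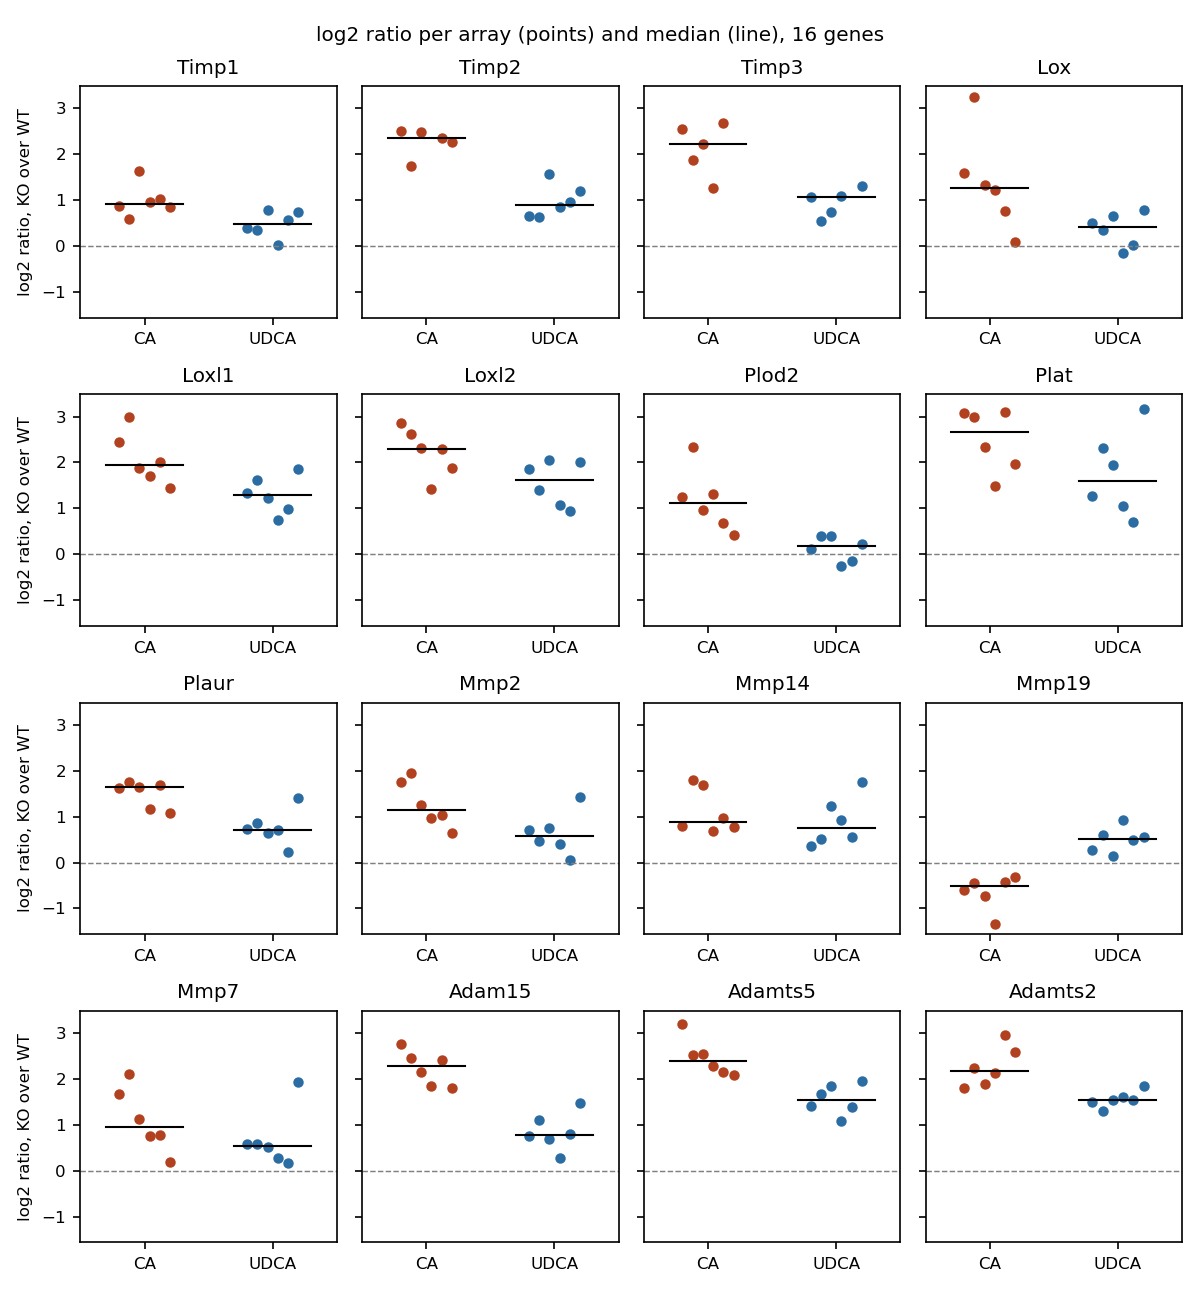
Log2 ratio of knockout over wild type on each array (points) with the median (line) for 16 genes, CA arrays left of UDCA arrays. The dashed line is equal signal in knockout and wild type. Timp2, Adam15, Adamts5 and Plod2 have every CA point above every UDCA point, and Mmp19 has every CA point below 0 and every UDCA point above it.

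The difference between the diets is indirect, since the arrays of a diet carry their own wild-type samples. It was called for 18 of the 45 genes, 17 higher with CA and 1 lower, against 18.8% and 8.88% of all gene names. Of the 30 genes also detected in wild type, 11 were called higher with CA and 1 lower, where all genes detected in wild type had 16.6% and 10.8%. The largest differences were those of Adamts9 (1.59 ± 0.29, adjusted p = 0.00120), Adam15 (1.39 ± 0.21, adjusted p = 0.000299), Timp2 (1.30 ± 0.20, adjusted p = 0.000518), Adam33 (1.19 ± 0.22, adjusted p = 0.00140), Timp3 (1.17 ± 0.26, adjusted p = 0.00555) and Adamts12 (1.16 ± 0.30, adjusted p = 0.0106, SE, limma). Mmp11, Plod2, Adamts15, Adamts5, Adam19, Loxl1, Plaur, Adamts2 and Loxl2 were also called higher with CA, by 0.67 to 1.06, as were Lox and Adamts16, which were above background in no wild-type channel, so that their ratios have no exact size. Adam33, Adam19, Adamts12 and Plod2 were above background in no wild-type channel of the UDCA group. All sizes here are those of the brightest probe, and other probes of Adamts9, Adam15 and Adam33 had smaller ratios with CA. With slide as a fixed block the difference is not called for Timp3 (0.83, adjusted p = 0.0869), Adamts12 (0.66, adjusted p = 0.0849), Adamts2 (0.64, adjusted p = 0.0721, limma), Lox and Loxl2. The difference of Lox is lost without CA array 4 or any of UDCA arrays 1 to 5 (0.92 to 1.03), and that of Loxl2 without CA array 1, 2 or 5 or UDCA array 1, 2, 4 or 5 (0.57 to 0.67). With Agilent's processed signals 7 of the 18 calls are lost. Of these, Adamts15 falls to 0.07, Plaur to 0.08, Loxl1 to 0.13 and Loxl2 to 0.30 (adjusted p between 0.302 and 0.834, limma). The calls of Adamts12, Adamts2 and Adamts5 are lost at adjusted p-values between 0.0540 and 0.0672 (limma). Mmp19 was the 1 gene called lower with CA. Without UDCA array 6, 27 genes were called higher with CA, and no share over all genes is given for that setting.

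Between the diets, 5 genes had all CA arrays above all UDCA arrays (Adam15, Adam19, Adamts5, Timp2 and Plod2) and Mmp19 all below. This holds for the brightest probe of each gene, and the other probes of Adam15, Adam19 and Adamts5 overlapped between the diets. Of all gene names, 7.08% were above without overlap and 3.14% below. The fitted ratio was greater with CA than with UDCA for 37 of the 45 genes and for 57.3% of all gene names, and, among those detected in wild type, for 24 of the 30 and for 52.7% of all. Within slide 3, CA array 5 was set against UDCA arrays 1 and 2, which had the dyes the other way, and all 18 called genes differed in the same direction, with a median size of 0.78. Within slide 4, CA array 6 was set against UDCA arrays 4 and 5, with the same dyes, and 17 of 17 genes with a value did, with a median size of 0.63. These arrays were also part of the fit that called the genes, so the direction is largely set by the choice: of all gene names called in the difference, 95.5% kept the direction within slide 3 and 98.3% within slide 4. Over all arrays the median size was 0.99. With slide 4 left out, an alternative chosen after the data were seen, 9 genes were higher with CA and 2 lower, and 16 were higher in UDCA-fed knockout than in wild type. The UDCA calls of Mmp11, Mmp7, Mmp14, Mmp15, Mmp19, Adamts1 and Timp1 are then lost, and 8 of the 18 in the difference. No share over all genes is given for this setting either.

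**Figure D4:**
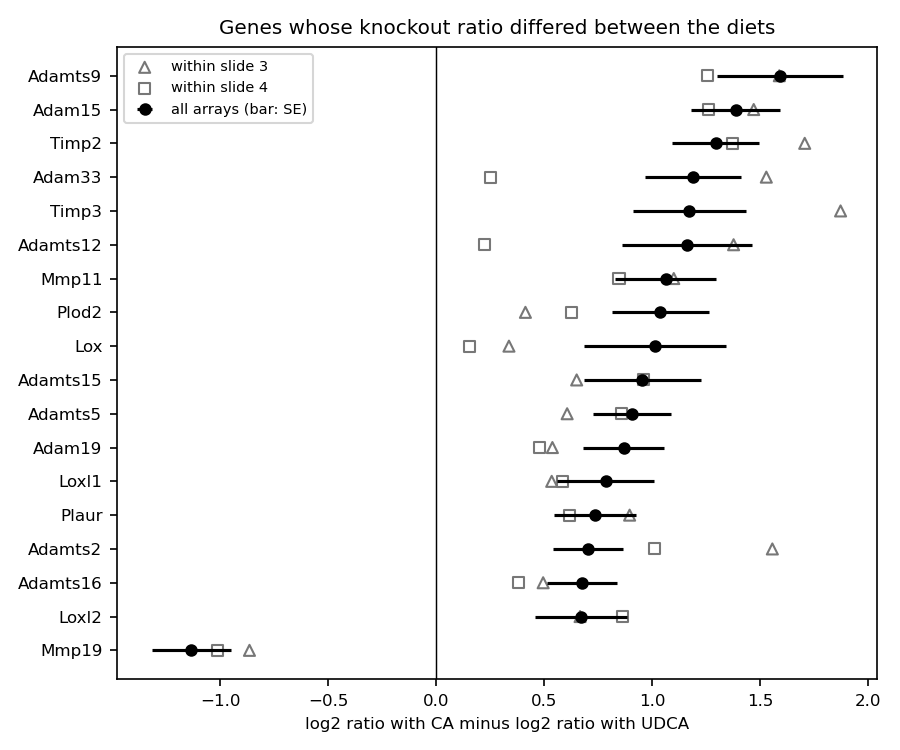
Log2 ratio with CA minus log2 ratio with UDCA (horizontal axis) for the 18 genes with an adjusted p under 0.05, from all arrays (black, bar is SE) and within slide 3 (triangles) and slide 4 (squares). All values within a slide lie on the same side of 0 as the value over all arrays, and Timp3 has none within slide 4.

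The normalization bears on this comparison more than on the others. With median centring of the arrays instead of loess, the median log2 ratio of all genes moved to 0.30 with CA and to 0.32 with UDCA, where loess gave 0.10 and 0.04. Under it 3931 gene names were called higher and 753 lower with CA, 1547 and 91 with UDCA, and 581 and 87 in the difference, where loess gave 5815 and 3449, 2644 and 1348, and 2885 and 1365. Of the 45 genes, 3 were called higher with CA than with UDCA, where loess gave 17, and the calls of Mmp11, Adam15, Adamts9 and Mmp19 were kept. Every called gene of the 38 followed through the alternatives kept its direction. A second probe also bears on the sizes: of 20 further tested probes of genes called with CA, 18 had the same call, of 14 with UDCA 5 did, and of 9 in the difference 5 did, and the remaining ones were not called.

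Other genes of the same pathway give the members a context. Of all gene names, 37.8% were called higher and 22.4% lower with CA, and 17.2% higher and 8.77% lower with UDCA. The counts called higher among other collagen-processing genes, inhibitors and activators, and matrix proteases were near or below this share with CA. With UDCA they were above it. Of 20 listed substrates 18 were tested, and 15 of them were higher with CA, with a median log2 ratio of 1.35, and 12 with UDCA, with a median of 0.89. Col1a1, the main fibrillar collagen chain, had 3.08 ± 0.29 with CA and 3.54 ± 0.29 with UDCA. Cx3cl1, shed by Adam10 and Adam17, had 4.14 ± 0.26 with CA and 2.44 ± 0.26 with UDCA, and Cxcl16, shed by the same enzymes, had 2.93 ± 0.15 with CA and 1.30 ± 0.15 with UDCA. The proteoglycan lumican (Lum), which binds collagen fibrils, had 3.82 ± 0.21 with CA and 2.73 ± 0.21 with UDCA. The cross-linking substrate elastin (Eln) had 1.18 ± 0.17 with CA and 0.40 ± 0.17, not called, with UDCA.

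Of 15 tested of 16 other collagen-processing genes, 6 were higher and 1 lower with CA, and 6 were higher with UDCA. These included the collagen chaperones Fkbp10 (2.66 ± 0.13 with CA, 1.33 ± 0.13 with UDCA) and Serpinh1 (2.44 ± 0.18 with CA, 1.75 ± 0.18 with UDCA), and Pcolce (2.13 ± 0.11 with CA, 1.38 ± 0.11 with UDCA), the enhancer of the C-propeptide protease. P3h3, of the prolyl 3-hydroxylase family, had 2.01 ± 0.14 with CA and 0.96 ± 0.14 with UDCA. Pcolce2, a relative of Pcolce, was lower with CA at -1.08 ± 0.14. The prolyl 4-hydroxylase subunits P4ha1 and P4hb were not called in either diet.

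Among 13 tested of 16 other inhibitors and activators, 4 were higher and 2 lower with CA and 4 were higher and 1 lower with UDCA. Plgrkt, a plasminogen receptor, had 1.72 ± 0.12 with CA and 0.67 ± 0.12 with UDCA, and Rhbdf2, which takes Adam17 to the cell surface, had 1.44 ± 0.16 with CA and 0.90 ± 0.16 with UDCA. Serpine2, an inhibitor of plasminogen activators and thrombin, had 1.38 ± 0.19 with CA and 0.31 ± 0.19, not called, with UDCA. Plasminogen (Plg) itself was not called, at -0.42 ± 0.22 with CA and -0.45 ± 0.22 with UDCA. Single arrays, with the dye effect included, ran from -2.17 to 1.86 with CA and from -2.00 to 1.39 with UDCA for Plg. Tfpi2, another inhibitor of plasmin, was lower with CA at -0.76 ± 0.14.

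Among 9 tested of 14 other matrix proteases, 3 were higher and 1 lower with CA and 5 were higher and 1 lower with UDCA, led by the cathepsin Ctss (2.75 ± 0.20 with CA, 2.01 ± 0.22 with UDCA) and by Htra1 (2.58 ± 0.15 with CA, 1.68 ± 0.15 with UDCA). The collagen-cutting cathepsin Ctsk had 1.72 ± 0.19 with CA and 1.05 ± 0.19 with UDCA, and Mme, or neprilysin, was called higher with UDCA (0.60 ± 0.14) and not called with CA. Bmp1, the C-propeptide protease of procollagen, was lower with both diets, -0.31 ± 0.12 with CA and -0.55 ± 0.12 with UDCA. Among relatives outside the naming rule, Adamtsl2, a secreted ADAMTS-like protein, had 1.85 ± 0.13 with CA and 0.94 ± 0.13 with UDCA, and Adamdec1, a macrophage protease, was called with UDCA (1.40 ± 0.13) and not with CA (0.25 ± 0.13).

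Markers of the cell types that whole liver can hold were read beside these genes. Their counts stand beside the same shares of all gene names, 37.8% higher and 22.4% lower with CA, and 17.2% and 8.77% with UDCA. Of the 12 stellate cell and fibroblast markers, all were higher with CA and 10 with UDCA, and the sum of their linear intensities ran between 70909 and 122852 in CA-fed knockout against 11725 and 31675 in its wild-type channels, and between 54673 and 91527 in UDCA-fed knockout against 18216 and 25053 in wild type. Of the 8 cholangiocyte markers, all were higher with CA and 6 with UDCA, with sums between 25128 and 158511 in CA-fed knockout against 4385 and 16472 in wild type, and between 18120 and 35428 in UDCA-fed knockout against 7079 and 8524 in wild type. Of the 10 macrophage and monocyte markers, 7 were higher and 3 lower with CA, the lower ones being the resident markers Clec4f, Vsig4 and Cd5l, and 8 were higher with UDCA. Their sums ran between 34130 and 66109 in CA-fed knockout against 18213 and 30118 in wild type, and between 27205 and 41017 in UDCA-fed knockout against 17117 and 21942 in wild type.

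Of the neutrophil markers, 2 of 10 were tested (S100a8 and S100a9), both higher with CA (1.27 and 1.53) and S100a9 also with UDCA (1.16), and Elane and Ngp were above background in no channel, beside the untested Mmp8 and Mmp9. Of the T cell markers, 4 of 5 were tested, with 2 higher and 1 lower with CA and 1 higher with UDCA, and of the B cell markers 1 of 4 was tested, Cd79b, which was higher with CA. Of the 7 endothelial markers, 2 were higher and 1 lower with CA and 1 was lower with UDCA. Of the 6 tested hepatocyte markers, 2 were lower with CA and 1 with UDCA. Their median log2 ratio varied widely between arrays, from -2.08 to 1.88 with CA and from -2.52 to 1.62 with UDCA, with the dye effect included. All 3 tested markers of exocrine pancreas, a neighbouring organ, were lower with CA, and their summed intensity ran between 1393 and 4128 in CA-fed knockout against 2593 and 40102 in wild type. The part that any of these cell types had in the values of the proteases, inhibitors and cross-linking enzymes was not tested.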

How the data were processed

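Images were read with Feature Extraction 9.5.3, per the labels and the file headers, which gave the deposited spot and local background intensity in both dyes, without normalization. The deposited log10 ratio of its dye-normalized signals and the authors' deposited log2 series values served as alternatives; the sources used here do not state how the series values were normalized. Here the intensities were background-corrected (normexp, offset 50), loess-normalized within arrays with control spots at weight 0, and fitted as log2 knockout over wild type with a dye effect per probe (R 4.3.3, limma 3.58.1, data.table version 1.17.8). Flagged non-uniform or outlier spots were set to missing (0.937% of values). A probe was tested if well above background on 5 of 6 arrays in a channel of a group (21688 probes, 15373 names), and called at a Benjamini-Hochberg adjusted p under 0.05. "At least" folds set the knockout mean against the wild-type mean of, per array, the higher of the lowest signal well above background and the dim probe's own. They are estimates from means and leave out sampling error, so the true fold can be smaller. No technical dye-swap pair could be identified (highest residual correlation 0.109 with CA and 0.0929 with UDCA, limit 0.3), so every array counted as 1 replicate. Equal replicate numbers did not pair arrays (correlations between -0.57 and 0.13). Symbols came from RefSeq by accession for 15542 tested probes; members keep the files' names, 112 of 141 probes have a RefSeq symbol and 1 differs. The exon or untranslated region under a probe was not assigned. The fit was tested on simulated data. The members and lists were chosen with earlier results of these data known. Followed through the alternatives were 38 of the 45 tested genes: in each role and comparison up to 6 called genes by absolute log2 ratio, and a list of 18 always kept where tested (Timp1 to Timp4, Mmp2, Mmp9, Mmp14, Adam10, Adam17, Lox, Loxl1, Loxl2, Plod1 to Plod3, Plau, Plaur, Plat). From each list of other pathway genes up to 4 called ones were taken by size. One gene so taken is not reported here. Mmp13, Adam1a, Adam9, Adamts7, Adamts8, Adamts10 and Adamts13 fall outside the rule and were named after their values were seen, as were Eln, Vwf, Pcolce2, P4ha1, P4hb, Plg, Tfpi2 and Bmp1 of the lists. The number of arrays limits the precision.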

Additional observations from a re-analysis of the deposited data

Results flagged for a closer look

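Among the followed genes, 4 had an array far from the other 5 of its diet group, by Dixon's test at the 95% level, which marks about 5% of groups by chance (76 were tested). Mmp7 had a log2 ratio of 1.93 on UDCA array 6, where the others lay between 0.16 and 0.58. Plod1 had -1.43 on UDCA array 6, where the others lay between -0.41 and 0.08, and Plod3 had -0.67 there, where the others lay between 0.04 and 0.23. Mmp17 had 0.86 on CA array 2, where the others lay between 0.22 and 0.39. UDCA array 6 thus held 3 of these 4 and was the only array on its slide.

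The difference between the diets (CA minus UDCA, log2) was called for 18 genes by a test of the difference itself. It was 1.59 for Adamts9, 1.39 for Adam15, 1.30 for Timp2, 1.19 for Adam33, 1.17 for Timp3, 1.16 for Adamts12, 1.06 for Mmp11, 1.04 for Plod2, 1.02 for Lox, 0.96 for Adamts15, 0.91 for Adamts5, 0.87 for Adam19, 0.79 for Loxl1, 0.74 for Plaur, 0.71 for Adamts2, 0.68 for Adamts16 and 0.67 for Loxl2. It was -1.13 for Mmp19. Lox and Adamts16 were above background in no wild-type channel, so their values have no exact size. Of these 18 calls, 7 are lost with Agilent's processed signals and 14 with median centring in place of loess.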

How the results depend on the processing

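There were 24 alternatives for each comparison with wild type and 25 for the difference between the diets. Over them, no log2 ratio of the 38 followed genes that had been called changed direction. For the authors' series values the direction of each array had first been matched to the scanner ratios. Of the single values, 2596 stayed on their side of the threshold, 111 lost and 58 gained a call. Of counts, CA lower went to 1 with median centring, where 3 genes were higher with CA in the difference. Lower in the difference were 3 with Agilent's processed signals or the authors' series values, and 2 without the filter on dim probes, with a gene's probes averaged, or without slide 4 (9 higher, and 16 higher with UDCA; chosen after seeing the data). Leaving out single arrays gave 33 to 38 higher and 3 to 4 lower with CA, 20 to 23 higher with UDCA, and 15 to 27 higher and 1 to 2 lower in the difference, the 27 without UDCA array 6. With slide as a fixed block the counts were 30 and 3 with CA, 23 higher with UDCA, and 13 and 1 in the difference. Calls over all genes are given here only for loess and for median centring. A change in the other counts thus cannot be told from a change over all genes. The replicate block gave 17 and 1 in the difference and lost Lox; the numbers did not pair the arrays. The calls lost most often were those of Lox (13 of 25) and Loxl2 (12) in the difference, and of Mmp11 (15 of 24), Mmp7 (10) and Timp1 (5) with UDCA, and of Loxl3 (6 of 23) with CA. The cause was not tested. Dim signal limits the genes with no wild-type detection.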
